A study of Mus musculus with 6 samples.

Results

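The 35 genes described here encode enzymes and carriers of fatty acid oxidation, enzymes of ketone body metabolism and the regulator Ppara. They were chosen by gene symbol, and all 35 are among the 17275 genes of the deposited count table. The samples are sorted mouse hepatocytes, the main metabolic cells of the liver. All came from C57BL/6 mice carrying Axin2rtTA and TetO-H2B-GFP, in which doxycycline switches on a nuclear green fluorescent protein in cells that transcribe Axin2. The animals drank doxycycline for 7 days, and their age is given as 8 weeks in one label and as postnatal day 63 in another. Non-parenchymal cells were first depleted, and hepatocytes with and without green fluorescence were then sorted, giving 3 RNA-seq libraries labelled Axin2-positive and 3 labelled Axin2-negative. The groups therefore share genotype and drug, and they differ in reporter fluorescence. The titles name each library by its label and a short run of bases, read here as a sequencing index. They give no replicate or animal number. Each run is shared by 1 library of each group. The numbers 1, 2 and 3, called replicate numbers below, were assigned here to these runs and are used to pair the libraries. A shared run does not by itself show that 2 libraries came from the same mouse.

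Axin2 is a target of Wnt signalling, and in liver this signal is strongest around the central vein. Fatty acid oxidation shortens acyl chains step by step: long-chain fatty acids are activated to acyl-CoA, carried into mitochondria on carnitine, and then cycle through dehydrogenation, hydration, a second dehydrogenation and thiolysis. Peroxisomes run a parallel cycle for very long, branched and bile acid side chains. In fasting, hepatocytes turn the acetyl-CoA into ketone bodies for export, and the nuclear receptor PPARalpha, product of Ppara, raises transcription of many of these genes. Periportal hepatocytes are classically the side of the lobule with more fatty acid oxidation.

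The 6 libraries hold 75882611 to 103386648 assigned reads, and the 35 genes took 1.17% to 1.48% of them. Levels below are CPM, the reads of a gene scaled to the assigned reads of its library after TMM scaling, a correction for composition. Axin2 itself stood at 2.40, 22.6 and 24.2 CPM in libraries 1, 2 and 3 labelled Axin2-positive and at 3.04, 3.75 and 5.75 CPM in those labelled Axin2-negative, so the library labelled Axin2-positive 1 goes against its label. Glul, a pericentral enzyme, had 88.0, 339 and 1050 CPM against 87.9, 46.9 and 119 CPM, and the periportal Cyp2f2 had 1624, 6.17 and 18.8 CPM against 1653, 2159 and 1233 CPM, so that library 1 again lies with the Axin2-negative ones. Differences within pair 1 were small over all 12343 genes tested, with an SD of 0.22 on the log2 scale, against 0.78 and 0.62 in pairs 2 and 3. The hepatocyte markers were present in every library, with Alb at or above 60076 CPM. Ddx3y, which lies on the Y chromosome, has 7164 and 6759 reads in pair 2 and at most 3 in the other 4 libraries, so this pair differs from the others also in sex-linked reads. Counts of calls, list medians and the fold changes of the 3 genes called among the 35 are given with and without pair 1. Group means and the authors' FPKM values include it.

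Most of the 35 genes were at similar levels in the libraries labelled Axin2-positive and Axin2-negative. With 6 libraries 0 were called, and 3 stood apart in pairs 2 and 3. Past a fold of 1.5 in both of these pairs, 2 were higher (5.71%) and 1 was lower (2.86%). Over all tested genes these shares were 3.22% and 6.64%, so a count of 3 does not set the 35 genes apart. Bdh2, a cytosolic 3-hydroxybutyrate dehydrogenase, was 7.98- and 6.09-fold lower in the libraries labelled Axin2-positive of pairs 2 and 3. Bdh1, the mitochondrial 3-hydroxybutyrate dehydrogenase, was 1.65- and 1.73-fold higher in the same pairs. Eci2, an isomerase that lets unsaturated fatty acids enter the oxidation cycle, was 1.85- and 1.71-fold higher. The 18 genes grouped here as mitochondrial, from the carnitine shuttle to the thiolases and without Bdh1 and Acat1, all lay within a fold of 1.25 in pairs 2 and 3. The largest of these differences, 1.22-fold for Acads in pair 2, lies close to that cut.

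Over the 6 libraries, the quasi-likelihood test of edgeR put 0 of the 35 genes higher and 0 lower at a Benjamini-Hochberg adjusted p under 0.05, where 0.0% of all tested genes were called in either direction. DESeq2 and limma-voom also called 0 genes. At an unadjusted p under 0.05 edgeR counted 279 genes, 2.26% of those tested, and 0 of the 35. With the replicate block 1132 genes (9.17%) reached that level, among them Bdh1, Bdh2 and Eci2. Without the library labelled Axin2-positive 1, 1 gene was called higher (0.00796%) and 5 lower (0.0398%), and Bdh2 was among the latter. That library is the one whose Axin2 level goes against its label, so this call is not independent evidence.

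In the fit of pairs 2 and 3 alone, edgeR called Bdh1 and Eci2 higher, 2 of 35 against 3.43% of all 12385 genes tested, and Bdh2 lower, 1 of 35 against 4.01%. These shares of 5.71% and 2.86% lie near the background. At an unadjusted p under 0.05 this fit counted 7 of the 35, against 3356 of all genes (27.1%). The 2 pairs were picked because pair 1 showed little difference, so these calls are not independent evidence, and the fit has 1 residual degree of freedom. Against a fold of 1.5, Bdh2 remained called (background 0.888% lower) and 0 of the 35 were called higher (0.791%). Over the 35 genes, the median log2 fold change was 0.06 with 6 libraries and 0.09 in pairs 2 and 3, beside -0.00 in both fits over all tested genes. In bulk samples such as these, fewer cells of a type and less RNA per cell cannot be told apart.

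A large share of the 35 genes varied little between the sorted fractions. In pairs 2 and 3, 28 of 35 (80.0%) lay within a fold of 1.25 in both, against 6106 (49.5%) of all tested genes, many of which have fewer reads. The median size of the log2 difference was 0.18 and 0.10 in these pairs, beside 0.25 and 0.21 over all genes. Past a fold of 1.5 in both pairs lay 2 of the 35 genes on the higher side, where 3.22% of all genes did, and 1 on the lower side, where 6.64% did. In pair 1 the 35 genes ran from -0.17 (Bdh2) to 0.06.

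**Figure D1:**
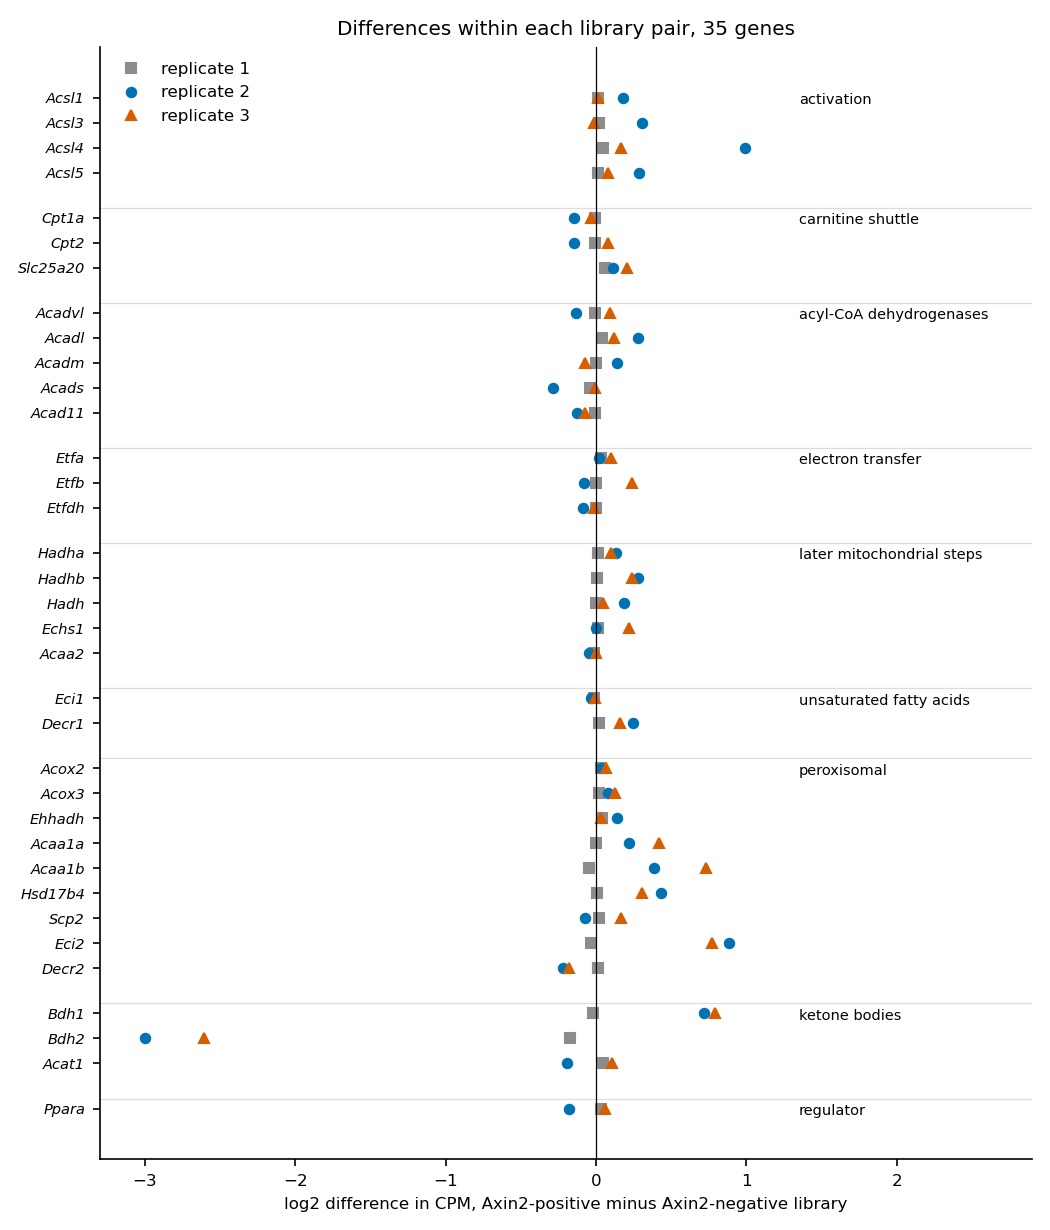
Each point is the log2 difference in CPM between the library labelled Axin2-positive and the one labelled Axin2-negative of a replicate number, for the 35 genes grouped by role. Pair 1 stays between -0.17 and 0.06, and Bdh2 stands far to the left in pairs 2 and 3 while Bdh1, Eci2 and, in pair 2, Acsl4 stand to the right.

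Of the 3 ketone body enzymes, the fit of pairs 2 and 3 called Bdh2 lower and Bdh1 higher. Bdh2 (chromosome 3, 135281221 to 135304426, plus strand, GRCm38) stood at 13.8, 1.91 and 2.23 CPM in libraries 1, 2 and 3 labelled Axin2-positive and at 15.6, 15.6 and 13.9 CPM in those labelled Axin2-negative. Libraries 2 and 3 labelled Axin2-positive are far below the other 4, and the groups do not overlap, though only 13.8 against 13.9 CPM separates them. Such separation held for 465 of all tested genes in this direction (3.77%) and, in the other direction, for 425 (3.44%), none of them among the 35. The means were 5.99 ± 6.78 CPM (SD, n = 3) and 15.0 ± 1.0 CPM (SD, n = 3), from 151 to 1488 reads per library. The log2 fold change was -1.32 (SE 0.79, edgeR adjusted p = 0.999) with 6 libraries and -1.94 (adjusted p = 0.45) with the replicate block. It was -2.86 (SE 0.15, edgeR adjusted p = 0.0366) without the library labelled Axin2-positive 1 and -2.83 (SE 0.16, adjusted p = 0.00426) in pairs 2 and 3. Both of these fits leave out the library that goes against its label, so they are not separate evidence.

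Bdh1 interconverts acetoacetate and 3-hydroxybutyrate in mitochondria and lies on chromosome 16, 31422280 to 31458901, plus strand. Its levels were 212, 320 and 416 CPM in libraries 1, 2 and 3 labelled Axin2-positive and 215, 194 and 240 CPM in those labelled Axin2-negative. Libraries 2 and 3 labelled Axin2-positive are the highest, and library 1 lies inside the range of the other group. The means were 316 ± 102 and 216 ± 23.1 CPM (SD, n = 3 each). The log2 fold change was 0.55 (SE 0.26, edgeR adjusted p = 0.999) with 6 libraries and 0.76 (SE 0.11, adjusted p = 0.0236) in pairs 2 and 3, and against a fold of 1.5 the latter gave an adjusted p of 0.423.

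Acat1, the mitochondrial thiolase that makes and splits acetoacetyl-CoA, did not separate the groups. It stood at 583, 293 and 341 CPM in libraries 1, 2 and 3 labelled Axin2-positive and at 565, 336 and 316 CPM in those labelled Axin2-negative. Its levels follow the replicate number rather than the label, with both libraries of pair 1 the highest. The log2 fold change was -0.04 (SE 0.12, edgeR adjusted p = 0.866) in pairs 2 and 3.

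The promoters of the 3 genes called in pairs 2 and 3 are shown because these genes moved in opposite directions. Each window runs from 250 bases before to 50 after a RefSeq start in GRCm38.p6, 5′ to 3′ on the gene's strand, and Bdh1 has 2 annotated starts. Capitals mark the only match in these windows to the motifs searched on both strands: AGGTCA, the basic unit of nuclear receptor sites, the direct repeat AGGTCANAGGTCA that PPARalpha prefers, and CTTTGA, the core that TCF factors of the Wnt pathway bind.
Bdh2, chr3:135280971-135281270, plus strand: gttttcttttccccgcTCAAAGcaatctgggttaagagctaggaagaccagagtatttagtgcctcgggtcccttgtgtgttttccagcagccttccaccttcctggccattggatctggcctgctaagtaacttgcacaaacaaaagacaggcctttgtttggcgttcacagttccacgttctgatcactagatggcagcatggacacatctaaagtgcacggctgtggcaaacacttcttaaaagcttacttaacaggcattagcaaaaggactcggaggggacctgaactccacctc
Bdh1, first start, chr16:31422047-31422346, plus strand: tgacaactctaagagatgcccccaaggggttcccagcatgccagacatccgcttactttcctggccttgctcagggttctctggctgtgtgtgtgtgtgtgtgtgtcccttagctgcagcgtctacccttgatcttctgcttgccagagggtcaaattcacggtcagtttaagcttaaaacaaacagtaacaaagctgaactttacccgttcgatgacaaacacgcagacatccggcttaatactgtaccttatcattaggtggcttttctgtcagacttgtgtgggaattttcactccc
Bdh1, other start, chr16:31428503-31428802, plus strand: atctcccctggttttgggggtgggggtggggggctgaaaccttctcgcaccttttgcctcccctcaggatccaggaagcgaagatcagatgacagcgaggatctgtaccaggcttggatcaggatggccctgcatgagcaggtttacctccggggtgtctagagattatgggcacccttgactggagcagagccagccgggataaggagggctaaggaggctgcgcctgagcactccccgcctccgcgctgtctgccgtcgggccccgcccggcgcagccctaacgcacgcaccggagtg
Eci2, chr13:34994095-34994394, minus strand: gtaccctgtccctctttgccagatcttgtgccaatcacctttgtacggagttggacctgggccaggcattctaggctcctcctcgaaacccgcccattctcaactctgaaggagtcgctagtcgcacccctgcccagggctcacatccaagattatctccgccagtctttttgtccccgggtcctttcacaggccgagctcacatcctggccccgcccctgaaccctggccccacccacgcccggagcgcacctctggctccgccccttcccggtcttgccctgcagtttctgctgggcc

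The match in Bdh2 is to the reverse complement of the TCF core. CTTTGA occurs in 5257 of 32851 RefSeq promoter windows of this length (16%) and in 5 of the 34 windows of the 35 genes, those of Acaa1a, Acaa1b, Acox2, Acsl5 and Bdh2. AGGTCA occurs in 5340 windows (16.3%) and in 5 of the 34, those of Acadm, Acadvl, Cpt1a, Echs1 and Scp2. The direct repeat occurs in 13 windows (0.0396%) and in 0 of the 34. The 34 windows belong to 31 of the 35 genes, and the windows of the other 4 were not analysed here.

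**Figure D2:**
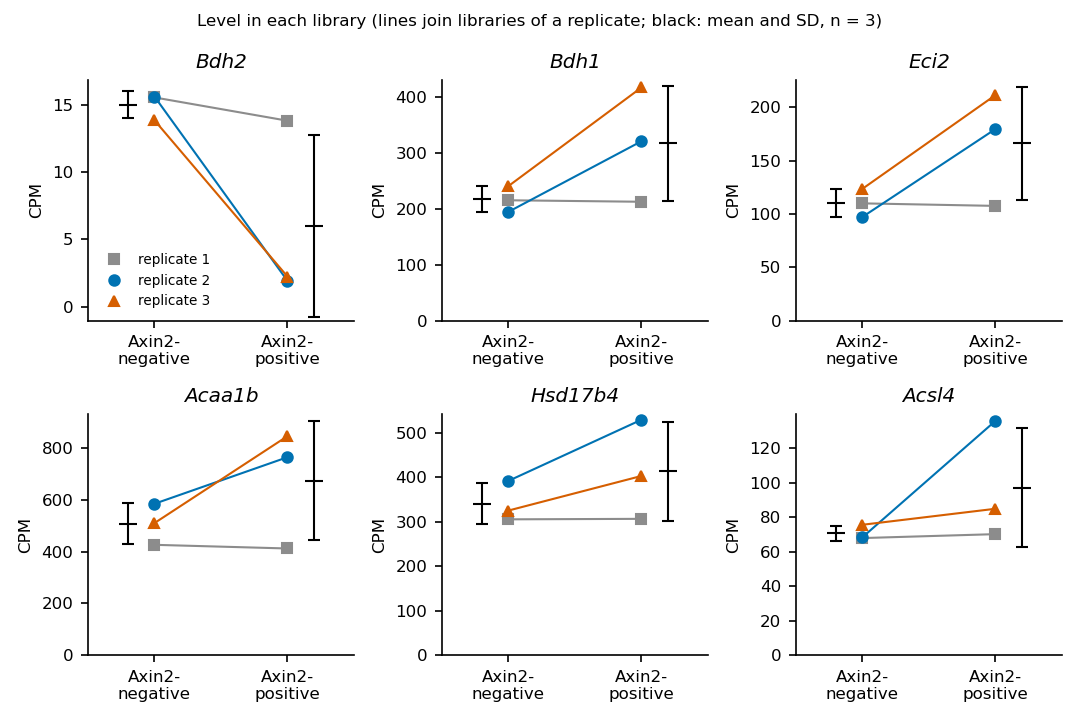
CPM of 6 genes in each library, with lines joining the libraries of a replicate number and black bars for the mean and SD (n = 3). Pair 1 is nearly flat in all 6 panels, Bdh2 drops from 15.6 to 1.91 CPM in pair 2, and Bdh1 and Eci2 climb in pairs 2 and 3.

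Among the 9 peroxisomal genes, 5 lay within a fold of 1.25 in pairs 2 and 3, where 49.5% of all genes did. Eci2 was the 1 gene called in the fit of those pairs. At an unadjusted p under 0.05 edgeR counted 4 of the 9, against 27.1% of all genes. Eci2 (chromosome 13, 34977748 to 35027096, minus strand) stood at 108, 180 and 212 CPM in libraries 1, 2 and 3 labelled Axin2-positive and at 110, 97.2 and 124 CPM in those labelled Axin2-negative. As with Bdh1, libraries 2 and 3 labelled Axin2-positive are the highest and library 1 falls among the other group. The means were 166 ± 53.3 and 110 ± 13.2 CPM (SD, n = 3 each), and the log2 fold change was 0.59 (SE 0.26, edgeR adjusted p = 0.999) with 6 libraries and 0.83 (SE 0.10, adjusted p = 0.0171) in pairs 2 and 3. Against a fold of 1.5 the adjusted p was 0.199. Its close copy Eci3 is 85.8% identical over 1158 aligned bases of their longest transcripts, so reads could be split between them. Eci3 held 1094, 9 and 18 reads in libraries 1, 2 and 3 labelled Axin2-positive and 1217, 5 and 850 in those labelled Axin2-negative, fewer than Eci2 in each library.

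The peroxisomal thiolases Acaa1a and Acaa1b cut acetyl-CoA from the chain. Acaa1b stood at 412, 765 and 846 CPM in libraries 1, 2 and 3 labelled Axin2-positive and at 426, 585 and 510 CPM in those labelled Axin2-negative. Libraries 2 and 3 labelled Axin2-positive are the highest of the 6 and library 1 is the lowest. Its log2 fold change was 0.41 (SE 0.30, edgeR adjusted p = 0.999) with 6 libraries. In pairs 2 and 3 it was 0.56 (SE 0.13, edgeR unadjusted p = 0.00636, adjusted p = 0.065), which misses the adjusted threshold of 0.05. The value with 6 libraries moved to 0.67 without library 1 labelled Axin2-positive and to 0.21 without library 3 of that label. Acaa1a had 77.4, 141 and 169 CPM against 77.3, 121 and 126 CPM, with a log2 fold change of 0.32 (SE 0.11, edgeR adjusted p = 0.138) in pairs 2 and 3. The 2 transcripts are 93.0% identical over 1636 aligned bases, so their split is uncertain.

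Hsd17b4, the multifunctional enzyme that hydrates and dehydrogenates branched acyl-CoA and bile acid precursors, stood at 306, 529 and 403 CPM against 305, 392 and 325 CPM. The difference lies in pairs 2 and 3, and the groups overlap. Its log2 fold change was 0.37 (SE 0.11, edgeR adjusted p = 0.102) in pairs 2 and 3. Decr2, the peroxisomal 2,4-dienoyl-CoA reductase, had 182, 123 and 193 CPM against 179, 143 and 218 CPM, with a log2 fold change of -0.20 (SE 0.10, edgeR adjusted p = 0.278).

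The other 4 peroxisomal genes differed little. Scp2, which encodes a sterol carrier and a thiolase, had 2607, 4959 and 2437 CPM against 2572, 5205 and 2174 CPM, so that pair 2 was the highest in both groups. Ehhadh, the bifunctional hydratase and dehydrogenase, had 410, 268 and 382 CPM against 399, 244 and 374 CPM. The oxidases Acox2 and Acox3 had log2 fold changes of 0.05 and 0.11 in pairs 2 and 3. Over the 9 peroxisomal genes the median log2 difference was 0.02, 0.14 and 0.16 in pairs 1, 2 and 3, where that of all genes was 0.00, -0.01 and -0.00.

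Fatty acid activation is the work of the long-chain acyl-CoA synthetases. Acsl4, which prefers arachidonic acid, stood at 70.2, 136 and 84.9 CPM in libraries 1, 2 and 3 labelled Axin2-positive and at 67.9, 68.4 and 75.6 CPM in those labelled Axin2-negative. Library 2 labelled Axin2-positive alone is far above the rest. The log2 difference was 0.99 in pair 2 and 0.17 in pair 3, and the fit of these pairs gave 0.58 (SE 0.20, edgeR adjusted p = 0.146). Acsl1, the main synthetase of liver, had 1246, 1087 and 1056 CPM against 1234, 960 and 1046 CPM. Acsl5 had 783, 483 and 588 CPM against 777, 397 and 556 CPM, and it overlaps Zdhhc6 on the opposite strand, which matters because the use of strand in counting is not given in the sources used here. Acsl3 was low, from 25.5 to 56.0 CPM, and overlaps Utp14b on the same strand.

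The carnitine shuttle brings acyl groups across the mitochondrial membranes. Cpt1a, its rate-limiting outer enzyme, had 315, 325 and 433 CPM in libraries 1, 2 and 3 labelled Axin2-positive and 317, 359 and 443 CPM in those labelled Axin2-negative. Each value lies close to that of its pair, and the log2 fold change was -0.06 (SE 0.20, edgeR adjusted p = 0.999) with 6 libraries and -0.09 (SE 0.11, adjusted p = 0.656) in pairs 2 and 3. Cpt2, the inner enzyme, had log2 differences of -0.14 and 0.08 in pairs 2 and 3, and the carrier Slc25a20 had 0.11 and 0.21.

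The 5 acyl-CoA dehydrogenases take the first step inside mitochondria and differ in the chain length they prefer. Acads, for short chains, had 140, 132 and 134 CPM against 144, 161 and 135 CPM, the lowest mean difference of the mitochondrial genes in pairs 2 and 3, at -0.29 and -0.01 on the log2 scale. Acad11, grouped here with the mitochondrial enzymes, had 360, 329 and 381 CPM against 362, 359 and 402 CPM. Acadvl, Acadl and Acadm, for very long, long and medium chains, had log2 fold changes of -0.02, 0.20 and 0.04 in pairs 2 and 3. Electrons from these enzymes pass to the electron transfer flavoprotein. Its subunit Etfa had 323, 334 and 332 CPM against 315, 329 and 309 CPM, and Etfb and Etfdh had log2 fold changes of 0.08 and -0.05 in pairs 2 and 3.

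In the later steps, Acaa2, the mitochondrial thiolase, had 722, 719 and 675 CPM in libraries 1, 2 and 3 labelled Axin2-positive and 727, 743 and 675 CPM in those labelled Axin2-negative, which is the same level to within 0.05 on the log2 scale in each pair. Hadha and Hadhb, the subunits of the trifunctional protein, had log2 fold changes of 0.12 (SE 0.10) and 0.26 (SE 0.10) in pairs 2 and 3, with edgeR adjusted p of 0.524 and 0.189. Hadh and Echs1 had 0.12 and 0.11. Of the auxiliary enzymes for unsaturated chains, Decr1 had 170, 145 and 168 CPM against 167, 122 and 151 CPM, and Eci1, the mitochondrial counterpart of Eci2, had 86.6, 75.2 and 90.8 CPM against 87.5, 77.0 and 91.2 CPM. Over the 18 mitochondrial genes the log2 differences ran from -0.29 to 0.28 in pair 2 and from -0.08 to 0.24 in pair 3, with 0 called in either direction by edgeR in the fit of these pairs, 0 at an unadjusted p under 0.05 there (27.1% of all genes) and, as above, 0 with 6 libraries by any of the 3 tools. A p that misses the threshold does not show that levels were equal.

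Ppara had 286, 172 and 262 CPM in libraries 1, 2 and 3 labelled Axin2-positive and 280, 195 and 251 CPM in those labelled Axin2-negative. Both libraries of pair 2 are the lowest, whatever the label. The log2 fold change was -0.01 (SE 0.24, edgeR adjusted p = 0.999) with 6 libraries and -0.06 (SE 0.12, adjusted p = 0.787) in pairs 2 and 3.

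Some markers of hepatocytes and of other liver cells moved with the label in pairs 2 and 3. Of 5 hepatocyte markers, 2 were lower and 0 higher in the fit of these pairs, against 4.01% and 3.43% of all genes. The 2 were Apoa1 at -0.48 (edgeR adjusted p = 0.0382) and Tat at -0.45 (adjusted p = 0.0481). At an unadjusted p under 0.05 edgeR counted 4 of the 5, among them Ttr, which was higher by 0.31. Of 9 tested Kupffer cell markers, 7 were lower and 0 higher in the fit of these pairs, and the median log2 difference was -0.02, -2.31 and -2.50 in pairs 1, 2 and 3. Their summed level was 33.5 to 95.5 CPM where the label is Axin2-positive and 33.4 to 105 CPM in those labelled Axin2-negative, most of it from Mpeg1. The other Kupffer markers summed to 3.31, 0.43 and 4.58 CPM in libraries 1, 2 and 3 labelled Axin2-positive and to 3.29, 4.27 and 28.6 CPM in those labelled Axin2-negative, and Marco and C1qb were at 0 in library 2 labelled Axin2-positive. The 10 endothelial markers summed to 1.6 to 65.6 CPM against 5.6 to 93.1 CPM, and Cdh5, Lyve1 and Tek were at 0 in library 2 labelled Axin2-positive. In the fit of pairs 2 and 3 edgeR called 0 of the 10 endothelial markers, with 3 at an unadjusted p under 0.05 (27.1% of all genes). Their median log2 difference was 0.08, -1.60 and -0.51 in pairs 1, 2 and 3, and 9 of the 10 were below 0 in both pairs 2 and 3. Stellate cell markers summed to at most 8.5 CPM, and blood cell markers to at most 0.5 CPM. The 4 tested stellate markers were all below 0 in both pairs 2 and 3, with 0 called by edgeR. Bile duct markers summed to 11.1, 0.2 and 0.2 CPM against 11.6, 3.2 and 2.7 CPM, and both tested ones, Sox9 and Spp1, were lower in the fit of pairs 2 and 3. The part of these other liver cells in the lower Bdh2 level was not tested.

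The wider pathway was read from lists of other genes. Of 39 tested other genes of fatty acid oxidation, the fit of pairs 2 and 3 called 3 higher and 2 lower, against 3.43% and 4.01% of all genes, and the median log2 fold change was 0.05 with 6 libraries and 0.06 in pairs 2 and 3. Against a fold of 1.5, edgeR called 0 of the 39 in these pairs. In the edgeR test without a fold, 17 had an unadjusted p under 0.05, against 27.1% of all genes. Slc25a17, a peroxisomal carrier of coenzyme A and other cofactors, had 50.6, 102 and 86.3 CPM against 51.3, 60.7 and 52.8 CPM and rose by 0.73 on the log2 scale (edgeR adjusted p = 0.016). Slc22a5, the carnitine importer, rose by 0.60 (edgeR adjusted p = 0.0434), from 13.4, 12.9 and 22.1 CPM to 14.8, 22.0 and 29.7 CPM. Acad10 fell by 0.49 (edgeR adjusted p = 0.0363).

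Among 9 other genes of ketone body metabolism, the same fit called 1 higher and 1 lower, against 3.43% and 4.01% of all genes. Both are transporters of monocarboxylates. At an unadjusted p under 0.05 edgeR counted 4 of the 9 in that fit, against 27.1% of all genes. The median was 0.04 with 6 libraries and 0.08 in pairs 2 and 3. Slc16a6, known as an exporter of 3-hydroxybutyrate from liver, stood at 18.0, 1.05 and 1.87 CPM in libraries 1, 2 and 3 labelled Axin2-positive and at 16.9, 9.34 and 10.9 CPM in those labelled Axin2-negative. Its log2 fold change in pairs 2 and 3 was -2.83 (SE 0.21, edgeR adjusted p = 0.00578), and against a fold of 1.5 the adjusted p was 0.0107. Slc16a7 had 44.6, 70.3 and 122 CPM against 42.4, 21.2 and 64.2 CPM, a log2 fold change of 1.32 (SE 0.20, edgeR adjusted p = 0.0277), and against a fold of 1.5 the adjusted p was 0.107. Oxct1, which lets other tissues burn ketone bodies, stayed at or under 1.26 CPM in all 6 libraries.

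PPARalpha acts with partner receptors and co-activators. The 19 tested partners and regulators had a median log2 fold change of -0.11 with 6 libraries and -0.19 in pairs 2 and 3. At an unadjusted p under 0.05 edgeR counted 7 of them in these pairs, against 27.1% of all genes. The fit of these pairs called 0 higher and 3 lower, against 3.43% and 4.01% of all genes. The 3 were Lpin1, a co-activator and phosphatase, at -0.67 (edgeR adjusted p = 0.0265), Ppargc1a at -1.63 (adjusted p = 0.0347) and Ppargc1b at -1.12 (adjusted p = 0.0333), the latter 2 being co-activators of mitochondrial genes. Against a fold of 1.5 none of the 3 was called, with edgeR adjusted p of 0.878, 0.115 and 0.172. Ppargc1a had 10.2, 1.55 and 9.33 CPM in libraries 1, 2 and 3 labelled Axin2-positive and 10.6, 7.39 and 20.6 CPM in those labelled Axin2-negative.

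The list of 33 tested other PPARalpha targets includes Ehhadh and shares genes such as Slc22a5 with the lists above. It was chosen with earlier results of these data known. In the same fit 10 were called higher and 1 lower, against 3.43% and 4.01% of all genes. At an unadjusted p under 0.05 edgeR counted 20 of the 33, against 27.1% of all genes. The median was 0.18 with 6 libraries and 0.36 in pairs 2 and 3. Against a fold of 1.5, 5 were called higher (background 0.791%) and 0 lower (0.888%). The list did not move as a whole, with 21 genes above 0 and 7 below 0 in both pairs. Past a fold of 1.5 in both pairs, 10 were higher and 3 lower, against 3.22% and 6.64% of all genes. The genes given with values next are all from the higher side. Acot1, an acyl-CoA thioesterase, had 7.61, 12.8 and 27.7 CPM against 7.57, 2.49 and 6.74 CPM and rose by 2.19 on the log2 scale (edgeR adjusted p = 0.00447). G0s2, an inhibitor of triglyceride lipolysis, rose by 1.26 (edgeR adjusted p = 0.00559). Pdk4, the kinase that shuts pyruvate out of the citric acid cycle, was singled out after its values were seen, at 27.4, 80.1 and 57.3 CPM against 26.6, 3.42 and 6.90 CPM, a log2 fold change of 3.77 (edgeR adjusted p = 0.00909). Of 15 tested genes of peroxisome biogenesis, edgeR called 0 in the fit of pairs 2 and 3, with 2 at an unadjusted p under 0.05 (27.1% of all genes). Their median was -0.01 with 6 libraries and 0.02 in pairs 2 and 3, and the largest mean difference was that of Pex13 at 0.45 (adjusted p = 0.0533). All 6 pericentral reference genes were called higher and all 6 periportal ones lower in the fit of pairs 2 and 3. With 6 libraries edgeR called 0 in either list. The lists hold Axin2, Glul and Cyp2f2, which did not follow the label in pair 1, so these calls are not independent of the choice of pairs.

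**Figure D3:**
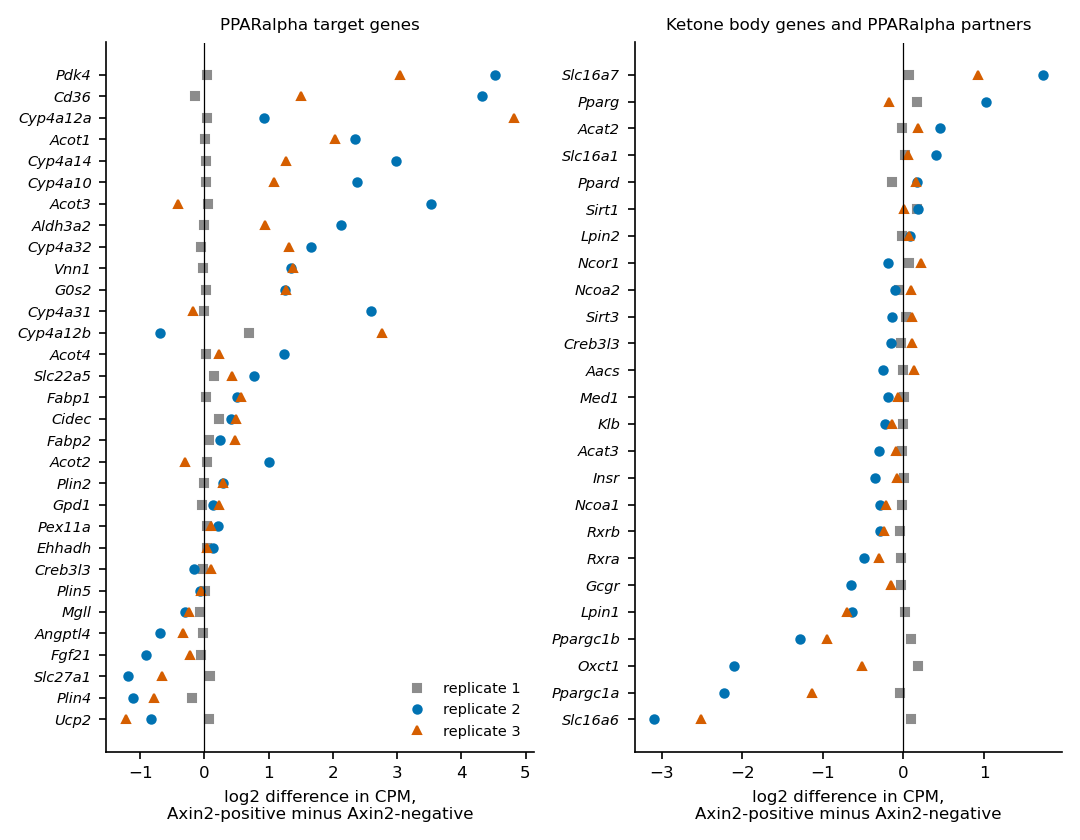
Log2 differences in CPM within each replicate pair (label positive minus label negative) for PPARalpha targets on the left and ketone body genes and PPARalpha partners on the right, without genes not reported here. Pdk4 and Acot1 lie to the right in pairs 2 and 3, Slc16a6 and Ppargc1a lie to the left, and Ehhadh stays near 0.

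Levels between genes can be set side by side only per length. In the authors' deposited table of FPKM values (fragments scaled to transcript length and library size), summed over a gene's transcripts and with 1 value per group, Scp2 stood highest at 1129 in the Axin2-positive group and 1233 in the Axin2-negative group. Acaa2 followed with 525 and 532 FPKM and Acaa1b with 496 and 379 FPKM in the authors' deposited table. The lowest were Acox3 with 7.9 and 7.7 FPKM and Bdh2 with 5.8 and 13.7 FPKM in the authors' deposited table, so Bdh2, which differed most, was among the least abundant transcripts. Reads per kilobase of exon computed from the counts put the same 3 genes on top, with mean RPKM over the 6 libraries of 956, 468 and 301. That table has no value per library, and neighbours in its order cannot be told apart against a spread.

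The authors' deposited comparison of the groups holds 45 transcripts of the 35 genes, of which 44 could be tested there. The count with a q-value under 0.05 is 0, against 97 of 13843 tested transcripts (0.701%) in the authors' deposited table. The smallest q-value among the 35 genes in the authors' deposited table was 0.145, for a Bdh2 transcript with 4.48 against 10.3 FPKM. The main Bdh1 transcript had 104 and 70.9 FPKM in the authors' deposited table, with an unadjusted p-value of 0.0506.

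**Figure D4:**
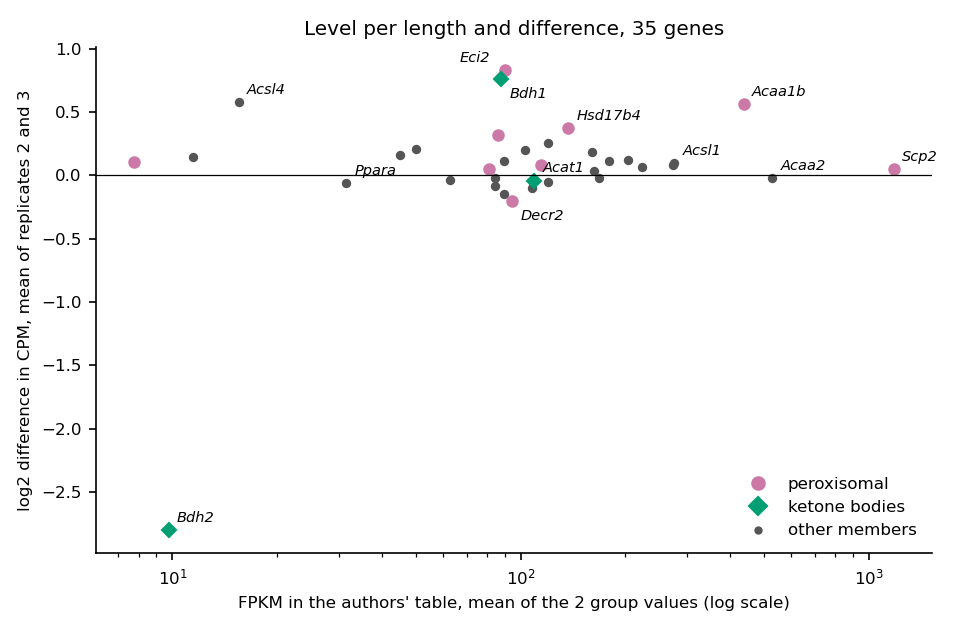
The mean of the FPKM values of the Axin2-positive and Axin2-negative groups in the authors' deposited table, on a log axis, against the mean log2 difference of pairs 2 and 3 from the counts, for the 35 genes. Bdh2 lies at the low end of the levels and far below 0, and the most abundant genes, Scp2 and Acaa2, lie near 0.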

How the data were processed

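RNA from sorted hepatocytes was sequenced with a stranded mRNA kit, per the labels' protocols. The authors deposited raw counts by gene symbol and library, and FPKM values per transcript and group with p-values and q-values from Cuffdiff 2.2.2, per the file headers and the submitters' processing notes, which also name TopHat2 2.0.11 and mm10. For the counter and its strand setting, the sources used here give nothing.

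The test was the quasi-likelihood F test of edgeR 4.0.16 under R 4.3.3, with group as the only term, genes kept by filterByExpr, TMM scaling, Benjamini-Hochberg adjustment and a threshold of 0.05. The SE given with an edgeR log2 fold change is the size of that change divided by the square root of F. The dispersion behind F is moderated across genes, so this SE is not the spread of 1 gene alone. Differences within a pair are log2 CPM with an offset of 0.05. Alternatives were DESeq2 1.42.0, limma-voom 3.58.1, a stricter threshold of 0.01, a fold of 1.5, other filters and scalings, the replicate block, fits of 2 pairs and leaving out each library. Gene positions come from GENCODE on GRCm38 and sequences from RefSeq. The fits were also run on simulated counts with known changes. That simulation had no replicate effect and no library going against its label, so it cannot show how the fits behave with these features.

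The 35 genes, the other lists and the fits of 2 pairs were chosen with earlier results of these data known. Genes named in full are those called in any edgeR fit, the 6 highest and 6 lowest by mean log2 difference in pairs 2 and 3, and at least 1 per role, and of each other list up to 4 with the lowest unadjusted p in the block fit. Pdk4, outside this rule, was added after its values were seen. Some genes of the other lists enter the counts and medians and are not reported here by name. No label states that each library is a separate mouse, and p-values then measure only the spread between libraries, which may be technical. The pairing rests on the shared index bases in the titles, to which the numbers were assigned here, and on deviations from group means. These deviations correlated across genes at 0.68, 0.82 and 0.75 between same-numbered libraries. The libraries of pair 1 differ by more than sampling noise (chi-square per degree of freedom 4.74, against 472 and 385 in the other pairs) and were kept as separate libraries. In the table, 23 gene symbols had turned into dates.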

Additional observations from a re-analysis of the deposited data

How the results depend on the processing

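With 6 libraries 0 genes were called, and the replicate block, in which libraries of the same number are paired, also gave 0 and changed no call. Leaving out each library in turn gave 0 to 1 genes higher and 0 to 5 lower over all genes. Among the 35 genes this gave 0 higher and 0 to 1 lower, and a call appeared only when library 1 labelled Axin2-positive was dropped. Pairs 2 and 3 alone gave 425 genes higher and 497 lower, with 2 and 1 of the 35. Against a fold of 1.5 this fit gave 98 and 110, with 0 and 1 of the 35. The median log2 fold change of the 35 genes stayed between 0.02 and 0.10. Decr2, -0.12 with 6 libraries, ran from -0.26 to 0.053 as each library was left out, with 0.053 without library 2 labelled Axin2-positive and 0.042 without library 3 labelled Axin2-negative, and the cause was not tested. Bdh2 ran from -2.86 to -0.90, Bdh1 from 0.30 to 0.77 and Eci2 from 0.37 to 0.83 over the alternatives. Acaa1b ran from 0.17 to 0.67, Hsd17b4 from 0.06 to 0.45, Acsl4 from 0.11 to 0.64 and Acaa1a from 0.01 to 0.52. With 3 libraries a group and this spread between pairs, differences of the size of those in Cpt1a or Ppara were not called. The smallest difference that could be detected was not computed.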

Other observations

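Several of the 35 genes varied between replicate numbers in both labelled groups. The geometric mean of the 2 libraries of a number differed by more than 1.5-fold between the highest and the lowest number for Scp2 (2.21-fold), Acsl3 (1.96-fold), Acaa1a (1.88-fold), Acat1 (1.83-fold), Acsl5 (1.78-fold), Acaa1b (1.60-fold), Ehhadh (1.58-fold), Acox2 (1.55-fold), Decr2 (1.55-fold) and Ppara (1.54-fold), and for Bdh2 (2.68-fold), whose value follows its drop within pairs 2 and 3. Scp2 and Acox2 were highest in pair 2, Acat1 and Acsl5 in pair 1, and Acaa1a in pair 3. The electron transfer genes Etfb and Etfa varied least, by 1.02- and 1.04-fold.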
